A study of Mus musculus with 12 samples.

Results

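Oxt, Sct and Pomc, the genes of the peptide hormone precursors for oxytocin, secretin and pro-opiomelanocortin, were followed in the mRNA of mouse blastocysts. They are 3 of the 34245 genes of the deposited table, were picked by symbol, and were picked because their levels differed between inhibited and control embryos in these same libraries. Their p38-MAPKi against control values are therefore descriptions and carry no test. Each of the 12 libraries came from a pool of 30 embryos of F1 hybrid (C57Bl6 x CBA/W) females mated with F1 males. The embryos were collected as 2-cell embryos and grown in KSOM with amino acids until E3.5. From then on they were kept with the DMSO solvent at 0.2-0.5% (control) or with the p38-MAPK inhibitor SB220025 at 20 µM (p38-MAPKi) for 4 h, 7 h or 10 h, which gave 6 groups of 2 biological replicates. No group carried a mutation or a transgene, and all groups shared the superovulated donors and the medium. A pool held whole blastocysts, in which fewer cells of a type and less RNA per cell cannot be told apart. The sources used here do not say whether the pools of a group came from different mothers or days, so p-values measure at most the spread between pools.

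Peptide hormones are made as long precursors that enter the secretory pathway, are cut at pairs of basic residues by proprotein convertases, and are often amidated at their last residue. Oxytocin comes mainly from hypothalamic neurons and acts on uterus, mammary gland and brain. Secretin comes from endocrine cells of the duodenum and makes the pancreas release bicarbonate. Pro-opiomelanocortin, a product of pituitary and of neurons of the arcuate nucleus, is cut into corticotropin, melanotropins and beta-endorphin. None of these tissues exists in a blastocyst, which holds trophectoderm, epiblast and primitive endoderm.

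The stretches of each gene that encode the hormone itself are printed here to show what these messages spell, read from GRCm38 with GENCODE M21 models. Capitals mark the codons of the cleavage signal, Gly-Lys-Arg in Oxt and Sct and Gly-Lys-Lys-Arg in Pomc, whose glycine supplies the amide of the mature hormone. The Oxt stretch lies at chr2:130576267-130576302 on the plus strand, in exon 1 of 3, and encodes the 9 residues of oxytocin. The Sct stretch lies at chr7:141278835-141278924 on the minus strand, in exon 2 of 4, and encodes the 27 residues of secretin. The Pomc stretch lies at chr12:3960130-3960180 on the plus strand, in exon 3 of 3, and encodes the 13 residues of alpha-melanotropin.
Oxt: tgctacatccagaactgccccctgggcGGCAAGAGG
Sct: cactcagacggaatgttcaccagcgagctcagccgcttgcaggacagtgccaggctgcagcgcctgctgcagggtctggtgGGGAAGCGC
Pomc: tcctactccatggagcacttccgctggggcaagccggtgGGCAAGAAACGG
In each of the 3 precursors, the signal occurs once after its hormone, within 125 coding residues in Oxt, 133 in Sct and 235 in Pomc. The files hold 1 value per gene and library, so which exons the reads covered was not analysed here.

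The 3 genes are short and stand apart from other genes. Oxt (ENSMUSG00000027301.7) spans chr2:130576173-130577054 with 1 annotated transcript of 537 exonic bases. Sct (ENSMUSG00000038580.13) spans chr7:141278330-141279133 with 4 transcripts and 645 bases of merged exons. Pomc (ENSMUSG00000020660.6) spans chr12:3954951-3960642 with 5 transcripts and 1318 bases. All 3 are annotated as protein coding, and no other gene of the table overlaps any of them on either strand.

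The 250 bases before the RefSeq start of each gene (GRCm38.p6; 3 of 3 genes matched) are printed because all 3 messages were highest in the same group. Capitals mark matches, on either strand, to the TATA box as spelled TATAAA, to the GC box as GGGCGG and to the E box as CANNTG. They also mark the core of nuclear receptor elements as TGACC, the core of the cyclic AMP element as TGACG and the site of the factor AP-1 as TGANTCA, and no match overlaps another. The stretches are chr2:130575919-130576168 on the plus strand, chr7:141279134-141279383 on the minus strand and chr12:3954695-3954944 on the plus strand.
Oxt: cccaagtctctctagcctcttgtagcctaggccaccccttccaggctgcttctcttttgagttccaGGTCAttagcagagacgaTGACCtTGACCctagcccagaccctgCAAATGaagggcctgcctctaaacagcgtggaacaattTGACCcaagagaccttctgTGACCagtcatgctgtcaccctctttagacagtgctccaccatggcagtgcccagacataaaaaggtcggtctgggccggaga
Sct: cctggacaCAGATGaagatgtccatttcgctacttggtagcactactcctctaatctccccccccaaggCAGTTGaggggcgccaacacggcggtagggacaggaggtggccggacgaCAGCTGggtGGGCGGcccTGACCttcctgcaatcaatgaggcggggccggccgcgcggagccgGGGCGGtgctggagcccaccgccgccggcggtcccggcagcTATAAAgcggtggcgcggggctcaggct
Pomc: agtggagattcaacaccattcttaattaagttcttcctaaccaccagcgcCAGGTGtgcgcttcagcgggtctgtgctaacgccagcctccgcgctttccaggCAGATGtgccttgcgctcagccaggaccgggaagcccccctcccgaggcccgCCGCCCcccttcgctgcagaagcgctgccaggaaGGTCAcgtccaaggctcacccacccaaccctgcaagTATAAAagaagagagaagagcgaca
Oxt had 5 matches to TGACC, where Sct and Pomc had 1 each, and 35.2% of 32851 mouse promoters of this length held at least 1. TATAAA was matched once in Sct, 28 bases before the start, and once in Pomc, 25 bases before it, but not in Oxt, and 12.4% of promoters held it. GGGCGG was matched 2 times in Sct and once in Pomc (32.7% of promoters), and CANNTG once in Oxt, 3 times in Sct and 2 times in Pomc (66.2% of promoters). TGACG (17.8% of promoters) and TGANTCA (6.75%) had no match in any of the 3 windows. GC content was 54% for Oxt, 68% for Sct and 60% for Pomc, where the median promoter had 52.4%. A match of letters is a description and not evidence of binding.

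Depth lay between 11242313 reads (p38-MAPKi at 7 h, replicate 1) and 24457311 reads (p38-MAPKi at 10 h, replicate 2). The library of least depth also had the fewest genes with a read, 14001 against 16343 or more in the other 11. The trophectoderm markers (8 genes) summed to 1770 to 2596 RPKM, that is, reads per kilobase of exon after scaling for library depth. The epiblast markers (6 genes) summed to 555.5 to 716.7 RPKM and the primitive endoderm markers (7 genes) to 132.5 to 212.5 RPKM. The libraries thus carried messages listed for all 3 blastocyst lineages. Most of the trophectoderm sum came from Krt18 (mean 1169 RPKM) and Krt8 (605.1), and most of the epiblast sum from Pou5f1 (426.7). Most of the primitive endoderm sum came from Gata6 (mean 103.2 RPKM) and Dab2 (46.5), while Sox17 (2.49), Gata4 (1.86) and Sox7 (0.155) were low. The paper describes GATA6 as present together with NANOG in uncommitted early cells, so this sum does not measure the primitive endoderm alone. Markers of cumulus and granulosa cells (8 genes) never summed to more than 0.690 RPKM, with 5 of them at 0 reads everywhere, and those of blood (5 genes) to no more than 1.17 RPKM, with 4 at 0.

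All 3 hormone messages were detected in every library, at more than 1 RPKM, and so passed the filter on low values in every comparison. Oxt had 64 to 279 reads per library, Sct 75 to 210 and Pomc 39 to 158. The RPKM scale allows levels of different genes to be compared. The mean over the 12 libraries, inhibited ones included, was 14.5 for Oxt, 10.4 for Sct and 3.71 for Pomc. Of all 34245 genes in the table, 11.2%, 14% and 22.6% had a higher mean, and 12527 had no read in any library.

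**Figure D1:**
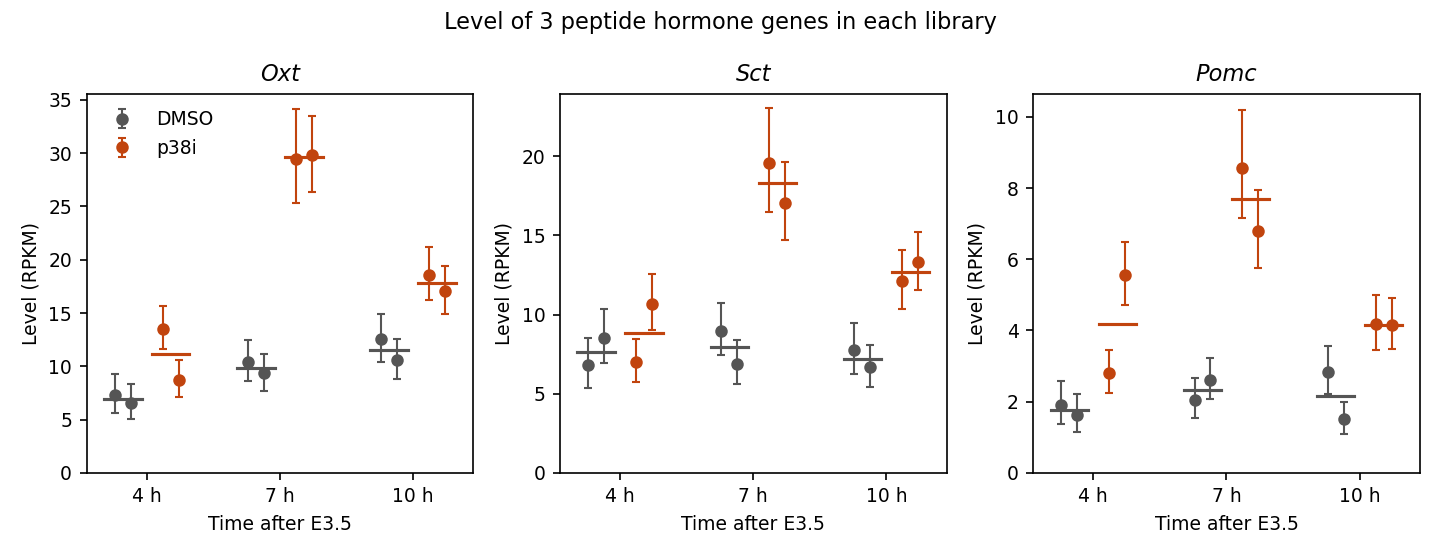
Level of Oxt, Sct and Pomc (y axis, RPKM, starting at 0, with its own scale in each panel) in each of the 12 libraries by time after E3.5, for control (DMSO, grey) and p38-MAPKi (p38i, orange). Points are libraries with exact 95% Poisson intervals, horizontal bars are means of 2 libraries, and the p38-MAPKi libraries at 7 h and 10 h lie above both controls of their time for all 3 genes.

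Oxt was at 7.30 and 6.53 RPKM in the controls at 4 h, at 10.4 and 9.33 at 7 h, and at 12.5 and 10.6 at 10 h. With p38-MAPKi it was at 13.5 and 8.70 RPKM at 4 h, at 29.5 and 29.8 at 7 h, and at 18.6 and 17.1 at 10 h. Inhibited libraries lay above both controls of their time at all 3 times, and the lowest inhibited library at 7 h was above every other library outside its group. Group means ± SD (n = 2) were 6.91 ± 0.545 and 11.1 ± 3.42 RPKM at 4 h, control first, 9.87 ± 0.762 and 29.6 ± 0.222 at 7 h, and 11.5 ± 1.39 and 17.8 ± 1.10 at 10 h. The difference on the log2 scale (limma estimate ± SE) was 0.65 ± 0.23 at 4 h, 1.59 ± 0.18 at 7 h and 0.63 ± 0.11 at 10 h, or 1.57-fold, 3.01-fold and 1.55-fold. At 4 h it was 0.33 without replicate 1 of p38-MAPKi and 0.97 without replicate 2. The limma fit at 4 h took its spread from 1 trend over all genes. The SEs of all 3 hormone genes at 4 h thus leave out the spread of their own pools. For Oxt the SD of the log2 values at 4 h was 0.114 in the controls and 0.451 with p38-MAPKi. Counting alone left the highest library, with 279 reads, an exact 95% Poisson interval of 26.4 to 33.5 RPKM and the lowest, with 64 reads, one of 5.03 to 8.33 RPKM; these intervals cover counting error only.

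Sct was at 6.80 and 8.49 RPKM in the controls at 4 h, at 8.96 and 6.91 at 7 h, and at 7.74 and 6.66 at 10 h. With p38-MAPKi it was at 7.01 and 10.7 RPKM at 4 h, at 19.6 and 17.1 at 7 h, and at 12.1 and 13.3 at 10 h. The groups overlapped at 4 h and did not at 7 h and 10 h. Group means ± SD (n = 2) were 7.65 ± 1.19 and 8.85 ± 2.60 RPKM at 4 h, 7.93 ± 1.453 and 18.3 ± 1.77 at 7 h, and 7.20 ± 0.763 and 12.7 ± 0.850 at 10 h. The log2 difference was 0.19 ± 0.23 at 4 h, 1.22 ± 0.21 at 7 h and 0.82 ± 0.11 at 10 h, or 1.14-fold, 2.32-fold and 1.77-fold. Without replicate 2 of p38-MAPKi at 4 h, the difference at 4 h changed sign, to -0.12.

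Pomc, the lowest of the 3, was at 1.91 and 1.62 RPKM in the controls at 4 h, at 2.05 and 2.60 at 7 h, and at 2.83 and 1.499 at 10 h. With p38-MAPKi it was at 2.81 and 5.55 RPKM at 4 h, at 8.57 and 6.79 at 7 h, and at 4.17 and 4.16 at 10 h. The groups did not overlap at any of the 3 times. Group means ± SD (n = 2) were 1.76 ± 0.204 and 4.18 ± 1.94 RPKM at 4 h, 2.32 ± 0.389 and 7.68 ± 1.26 at 7 h, and 2.16 ± 0.941 and 4.16 ± 0.0087 at 10 h. The log2 difference was 1.17 ± 0.32 at 4 h, 1.73 ± 0.26 at 7 h and 1.02 ± 0.29 at 10 h, or 2.24-fold, 3.31-fold and 2.02-fold. The SE at 4 h came from the trend over all genes, and the SD of the log2 values there was 0.167 in the controls and 0.695 with p38-MAPKi. Leaving out 1 library at a time gave 0.67 to 1.66 at 4 h, the lowest without replicate 2 of p38-MAPKi, and 0.56 to 1.47 at 10 h, the lowest without replicate 2 of the controls.

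The inhibited pools at 4 h differed from each other, with Oxt higher in replicate 1 and Sct and Pomc higher in replicate 2. In number, 2 of the 3 genes at 4 h and all 3 at 7 h and 10 h had inhibited libraries above both controls, where 26.8%, 23% and 22.6% of all tested genes did. Of all tested genes, 0.909%, 2.13% and 0.803% were called at 4 h, 7 h and 10 h (limma, Benjamini-Hochberg adjusted p under 0.05, either direction). As the genes were chosen on this difference, nothing is read from either count. At 7 h, 0.859% of 10940 tested genes had a larger log2 difference than Oxt, 1.92% a larger one than Sct and 0.667% a larger one than Pomc.

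In the order of the 6 groups, Oxt ran from controls at 4 h through controls at 7 h, p38-MAPKi at 4 h, controls at 10 h and p38-MAPKi at 10 h to p38-MAPKi at 7 h. The ranges of p38-MAPKi at 4 h and its neighbours on either side overlapped, and those of the other neighbours did not. For Sct, the 3 control groups and p38-MAPKi at 4 h overlapped from one to the next, with p38-MAPKi at 10 h and then at 7 h above them. For Pomc, the 3 control groups overlapped from one to the next, and p38-MAPKi at 10 h and at 4 h overlapped each other with higher means. The lower library of p38-MAPKi at 4 h (2.81 RPKM) still lay below the higher control at 10 h (2.83 RPKM). The group of p38-MAPKi at 7 h stood highest. All 3 genes thus had their highest mean with p38-MAPKi at 7 h, and a lower one at 10 h.

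At 7 h the difference between inhibited and control libraries went with transcript length over all genes, which bears on short genes such as these. The median log2 difference at 7 h was 0.64 for 319 genes of up to 700 bases and 0.43 for 831 genes of 701 to 1400 bases, against -0.42 for 3330 genes over 5600 bases. Within its own class, 13.2% of genes had a larger difference than Oxt, 21.6% a larger one than Sct and 2.41% a larger one than Pomc. With the trend on length removed from each library, the log2 difference at 7 h was 1.15 for Oxt, 0.82 for Sct and 1.49 for Pomc. At 4 h these were 0.48, 0.00 and 0.97, with Sct at no difference. At 10 h, where class medians lay between -0.04 and 0.00, they were 0.66, 0.86 and 1.06. The shares of genes in the same class with a larger difference at 10 h were 15.7% for Oxt, 10.5% for Sct and 2.22% for Pomc. At 4 h these shares were 15.2%, 43.8% and 2.71%.

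**Figure D2:**
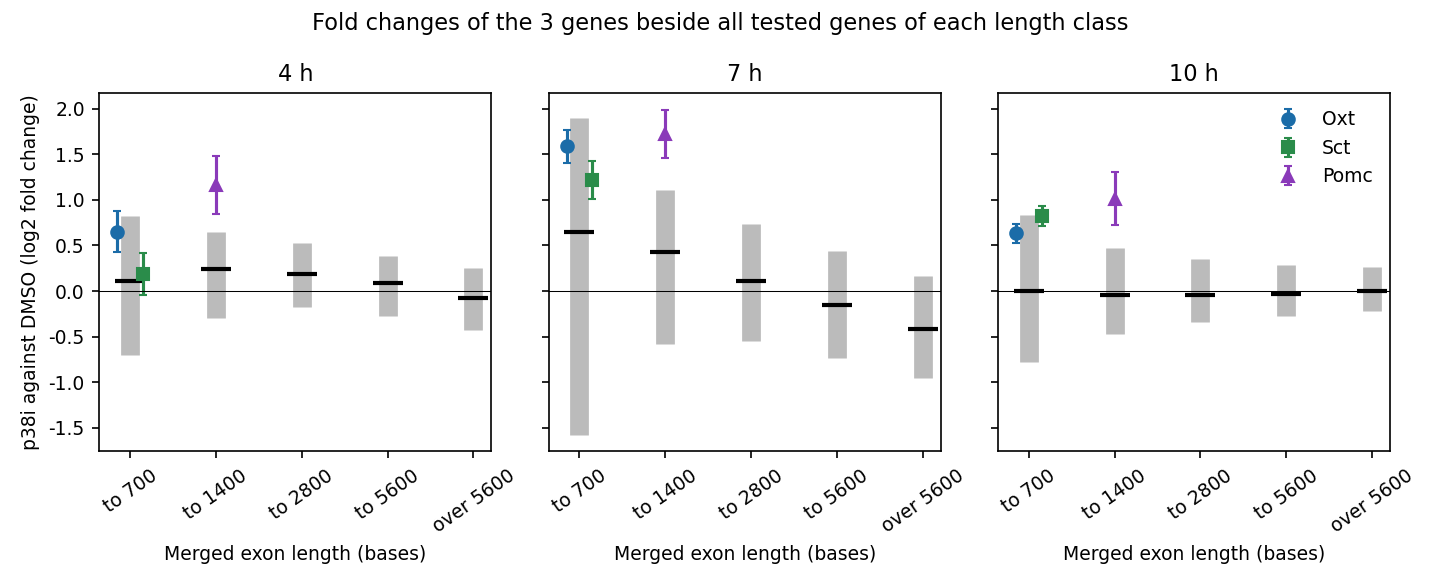
Difference between p38-MAPKi and control at 4, 7 and 10 h (y axis, log2 fold change) by merged exon length (x axis, bases). Grey bars run from the 10th to the 90th percentile of all tested genes of a class, black ticks are medians, and symbols are the 3 genes with the limma standard error; at 7 h the medians fall from 0.64 in the shortest to -0.42 in the longest class, and Pomc lies above the grey bar of its class at all 3 times.

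Of the tissues that normally make these hormones, pituitary and hypothalamus had a marker list, and the endocrine cells of the duodenum had none. The 9 pituitary and hypothalamus markers summed to 3.09 and 1.37 RPKM with p38-MAPKi at 7 h, to 0.519 and 1.51 RPKM with p38-MAPKi at 4 h, and to 0.247 to 0.713 RPKM in the 6 controls and the 2 inhibited libraries at 10 h. Most of the highest sum came from Lhb, the beta chain of luteinizing hormone, at 2.76 RPKM in that library and 23 reads over all 12, and Lhb overlaps Ruvbl2 on the other strand. In replicate 2 of p38-MAPKi at 7 h, most came from Cga, at 0.962 RPKM, which overlaps Platr9 on the other strand. Of the 9 markers, 4 had no read anywhere, Sim1 and Otp, factors of the oxytocin neuron lineage, among them, and Tbx19, the factor of the corticotroph lineage, had 16 reads in all. Oocyte and polar body markers (6 genes) summed to 7.00 RPKM in replicate 1 of p38-MAPKi at 7 h, to 5.93 RPKM in replicate 2 of p38-MAPKi at 4 h and to 2.01 to 3.52 RPKM in the other 10. The primitive endoderm markers also moved with the 7 h libraries, summing to 132.5 and 138.7 RPKM with p38-MAPKi at 7 h and to 194.4 and 212.5 RPKM in the controls of that time. At 4 h the sums were 195.1 and 142.9 RPKM with p38-MAPKi and 158.8 and 191.6 in the controls. Of 6 tested at 7 h, 1 was called, Dab2, where 2.13% of all tested genes were. Dab2 fell from 57.5 and 47.3 RPKM to 24.0 and 28.3 (log2 difference -1.003 ± 0.19, adjusted p = 0.046). At 7 h, 3 of 6 tested primitive endoderm, 3 of 7 trophectoderm and 0 of 6 epiblast markers had an unadjusted p under 0.05 in limma. This held for 28.4% of all tested genes. The median log2 difference of the primitive endoderm markers at 7 h was -0.46, against -0.39 for the trophectoderm and -0.195 for the epiblast markers. It was -0.42 for all tested genes of 5601 bases or more, and Gata6 and Dab2 have 6508 and 7342. Whether the primitive endoderm markers fell beyond the length trend was not tested. The part of these marker RNAs in the hormone levels was not tested.

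The control libraries entered the choice of the genes as the other side of each comparison, so their course over time is given as a description, with no test. Oxt was 6.91, 9.87 and 11.5 RPKM on average at 4 h, 7 h and 10 h, and no control library overlapped with those of another time. The log2 difference from 4 h to 10 h was 0.74 ± 0.15, that from 4 h to 7 h was 0.51 ± 0.20 and that from 7 h to 10 h was 0.22 ± 0.14. The fit from 4 h to 7 h took its spread from the trend over all genes. The SEs of Oxt, Sct and Pomc from 4 h to 7 h thus leave out the spread of their own pools. The median of all tested genes itself lay 0.14 higher at 10 h than at 4 h. Control groups that did not overlap and were higher later made up 25.3% of tested genes from 4 h to 7 h, 18.3% from 7 h to 10 h and 42.3% from 4 h to 10 h.

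Sct stayed between 6.66 and 8.96 RPKM in the 6 controls, and its log2 differences were 0.05 ± 0.20 from 4 h to 7 h, -0.13 ± 0.17 from 7 h to 10 h and -0.08 ± 0.16 from 4 h to 10 h. Pomc stayed between 1.499 and 2.83 RPKM, with 0.39 ± 0.31, -0.16 ± 0.33 and 0.23 ± 0.31. The standard errors of Pomc were the larger ones, that from 4 h to 7 h coming from the trend over all genes, and its control groups overlapped.

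Among the genes listed for peptide hormones, the 3 precursors stood high. Of 94 such genes with a value, 72 were under 1 RPKM in every library, 30 of them had no read at all, and 6 reached 1 RPKM in every library. Oxt ranked first and Sct second by mean RPKM, ahead of Igf2, an insulin-like growth factor (4.87), Nmb, the precursor of neuromedin B (4.61, overlapping Sec11a on the same strand), Nucb2, the precursor of nesfatin (4.51), Insl3 (4.45, lying within Jak3 on the same strand, so that their reads may be shared) and Pomc in seventh place. Over the 6 controls alone, Oxt (9.44) and Sct (7.59) still ranked first and second, and Pomc (2.08) ranked 8, after Epo (2.34). The 94 do not include Agrp, which was listed with the melanocortin system and overlaps other genes. With a mean of 9.34 RPKM over the 12 libraries, Agrp would stand next after Sct. Over the controls alone, where it ran from 5.92 to 11.9 RPKM, it would stand ahead of Sct. Avp, the vasopressin gene and the paralog of Oxt, had 0 reads in 12 libraries, and of the 14 other ligands and receptors of the secretin family, Sctr included, the highest mean was that of Adcyap1r1, a receptor for the PACAP neuropeptide, at 0.267 RPKM (423 reads in all), followed by Gipr (0.261) and Glp1r (0.200), the receptors of the incretin hormones. Penk, the enkephalin precursor, had 6 reads in all.

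Receptors for the hormones were at or near 0. Of 23 receptors, 22 were under 1 RPKM in every library and 6 had no read in any. Oxtr, the oxytocin receptor, had 8 reads over the 12 libraries, and Sctr, the secretin receptor, had 9. Of the melanocortin receptors, Mc2r, which binds corticotropin, Mc3r and Mc4r had 0 reads, Mc5r 4 and Mc1r 48. The highest value of any receptor was 1.86 RPKM for Avpr1b, a vasopressin receptor, with p38-MAPKi at 7 h, replicate 1. Lnpep, the peptidase known as oxytocinase, was at 2.04 RPKM, and Cd38, which takes part in oxytocin secretion, at 0.439 RPKM. At 7 h Lnpep stood at 2.18 and 2.69 RPKM in the controls and at 1.58 and 0.697 with p38-MAPKi, a log2 difference of -1.20 ± 0.50 (adjusted p = 0.16, limma), and voom on the recovered reads called it, as it did 15.9% of all tested genes at 7 h. Crhr2, a receptor of corticotropin-releasing hormone, was at 0.170 RPKM and Mrap, the helper protein of Mc2r, at 0.154 RPKM. Agrp, an antagonist of the central melanocortin receptors, was listed at a mean of 9.34 RPKM, but overlaps other genes on both strands, and how reads of overlapping genes were assigned is not given in the sources used here.

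**Figure D3:**
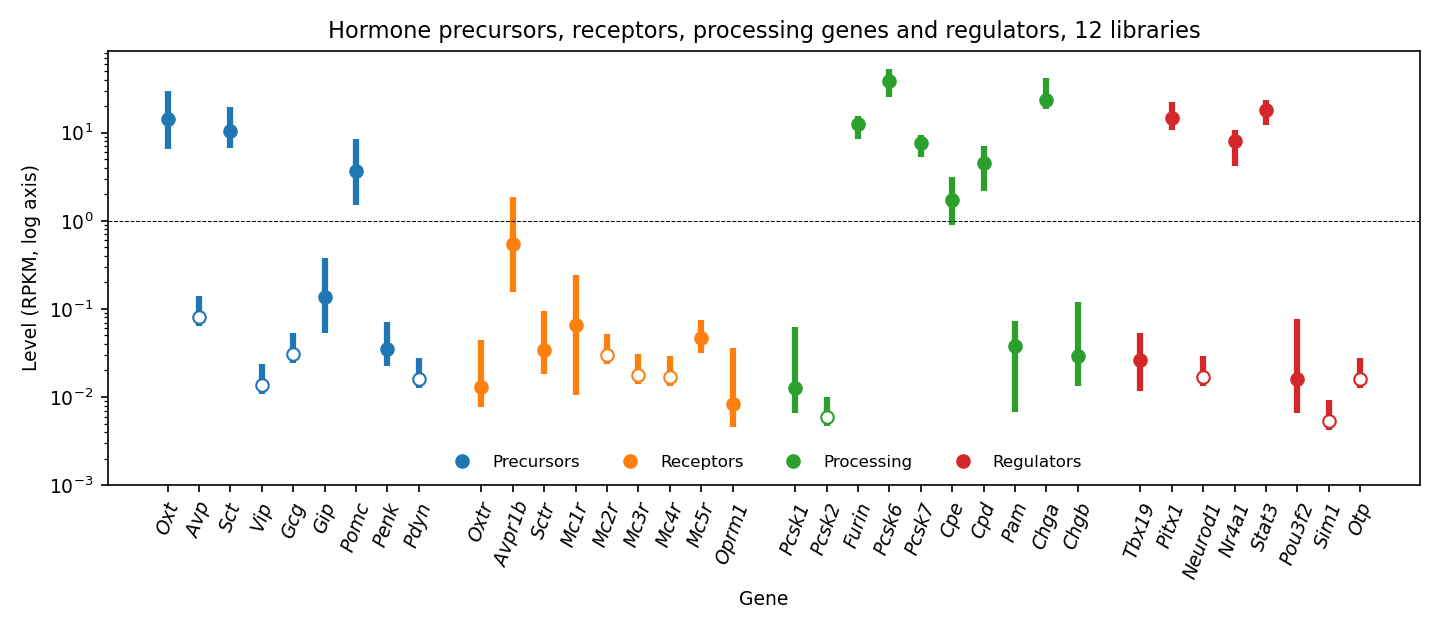
Level (y axis, RPKM on a log axis) of hormone precursors, receptors, processing genes and regulators. Dots are means and lines run from the lowest to the highest of 12 libraries, open dots are genes without a read, placed at the value that the deposited table gives to no read, and the dashed line is 1 RPKM; Oxt, Sct and Pomc lie above 1 RPKM, and their receptors Oxtr, Sctr and Mc2r below 0.1.

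Of the processing machinery, the convertases Furin, Pcsk6 and Pcsk7 were well above 1 RPKM, and the neuroendocrine ones were at or near 0, as was Pcsk5, another convertase (44 reads at a mean of 0.0210 RPKM). Pcsk6 (38.7 RPKM, the convertase PACE4), Chga (23.8 RPKM, chromogranin A, a granule protein) and Furin (12.5 RPKM) had the highest means of 24 genes. Pcsk1, the convertase that cuts pro-opiomelanocortin in the pituitary, had 7 reads in all, Pcsk2 had 0, and Pam, the enzyme that amidates peptides, had 114 reads at a mean of 0.0382 RPKM. Cpe, the carboxypeptidase that trims the basic residues, was at 1.71 RPKM. None of the 10 tested genes of this list was called in any of the 3 p38-MAPKi comparisons, with 1, 5 and 2 at an unadjusted p under 0.05 in limma at 4 h, 7 h and 10 h, where 9.42%, 28.4% and 19.8% of all tested genes were. Voom on the recovered reads called 0, 4 and 0, the 4 being Chga, Cpd, Pcsk6 and Pcsk7, and 0.315%, 15.9% and 4.51% of all tested genes. Chga stood at 22.7 and 19.0 RPKM in the controls at 7 h and at 41.5 and 28.2 with p38-MAPKi, a log2 difference of 0.72 ± 0.22 (adjusted p = 0.084).

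Among 27 regulators named for these hormone genes, Stat3 (18.3 RPKM), Atf1 (18.2) and Sp3 (16.9), all widely expressed factors, had the highest means. Pitx1, a factor of the Pomc promoter in corticotrophs, was at 14.6 RPKM, and its inhibited and control groups differed at 7 h by 0.05 ± 0.29 on the log2 scale (adjusted p = 0.93). Nr4a1, a nuclear receptor of the same promoter, was at 9.80 and 8.72 RPKM in the controls at 7 h and at 4.24 and 5.52 with p38-MAPKi. Its log2 difference was -0.93 ± 0.23 (adjusted p = 0.057). Nfic, a factor of the NFI family, fell at 10 h, from 5.42 and 6.04 RPKM to 2.61 and 2.60 (log2 difference -1.13 ± 0.13, adjusted p = 0.040). It was the 1 regulator called in the 3 comparisons, and without replicate 2 of the controls at 10 h it was not called (-1.06, adjusted p = 0.062). Voom called Nfic at 10 h too (4.51% of all tested genes), and at 7 h 4 of 13 tested, Nr4a1, Sp1, Sp3 and Stat3 (15.9% of all tested genes).

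Over all 171 genes listed for these pathways, 170 were in the table, and few passed the test. Of 35 tested at 4 h, 1 was higher and 1 lower with p38-MAPKi (0.909% of all tested genes were called). Of 36 tested at 7 h, 1 was higher (2.13% of all), and of 35 tested at 10 h, 1 was lower (0.803% of all). The median log2 differences were 0.00, -0.28 and 0.05, against 0.07, -0.14 and -0.02 over all tested genes.

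The calls among other hormones were few and rested on few reads, and reads may be shared for Epo, which overlaps Pop7 and Gnb2 on the same strand and other genes on the opposite one, and for Apela, which overlaps Gm45886 on the same strand. Edn2, the precursor of endothelin 2, rose at 4 h from 0.240 and 1.05 RPKM to 1.77 and 3.13 (log2 difference 2.23 ± 0.50, adjusted p = 0.0028). Epo, the erythropoietin gene, fell at 4 h from 2.39 and 2.88 RPKM to 1.49 and 0.541 (-1.55 ± 0.41, adjusted p = 0.026). Apela, the precursor of the apelin receptor ligand elabela, rose at 7 h from 1.42 and 0.810 RPKM to 5.40 and 3.37 (1.99 ± 0.42, adjusted p = 0.049). At 4 h the limma fit estimated one trend of spread for all genes, so that the disagreement of the Edn2 controls did not enter its test, and without replicate 1 of the controls the Edn2 difference was 1.17 (adjusted p = 1.0). Edn2 was also not called without replicate 2 of p38-MAPKi (1.82, adjusted p = 0.46). Epo was not called without replicate 2 of p38-MAPKi at 4 h (-0.82, adjusted p = 0.63), nor without replicate 1 (-1.68, adjusted p = 0.73) or replicate 2 (-1.42, adjusted p = 0.58) of the controls, and Apela not without replicate 2 of the controls at 7 h (1.59, adjusted p = 0.35). In the controls, Nppb, the gene of brain natriuretic peptide, rose from 1.20 and 1.12 RPKM at 4 h to 2.76 and 2.97 at 10 h (1.30 ± 0.25, adjusted p = 0.049), where 0.471% of 10825 tested genes were called. From 4 h to 7 h and from 7 h to 10 h in the controls, 0.492% and 0.0552% of all tested genes were called. It was not called without replicate 1 of the controls at 4 h (1.35, adjusted p = 0.076), replicate 1 at 10 h (1.36, adjusted p = 0.12) or replicate 2 at 10 h (1.25, adjusted p = 0.21).

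Of 15 genes within 50 kb of the 3, 8 passed the filter on low values, and none of these was called in a p38-MAPKi comparison, with 0, 4 and 0 at an unadjusted p under 0.05 in limma at 4 h, 7 h and 10 h (9.42%, 28.4% and 19.8% of all tested genes). Voom called 0, 2 and 0, the 2 being Mrps26 and Phrf1 (0.315%, 15.9% and 4.51% of all tested genes). Within 50 kb of Oxt, Mrps26, a mitochondrial ribosomal protein gene 7478 bases away on the same strand, had a mean of 24.4 RPKM and a log2 difference of 0.61 ± 0.17 at 7 h (adjusted p = 0.068). Ptpra, a phosphatase gene on the same side, was at 31.4 RPKM, with -0.43 ± 0.18 (adjusted p = 0.16), and Ubox5 and Fastkd5, beyond the 3' end of Oxt, were at 4.68 and 7.74 RPKM. Avp, which had no read, lies 3566 bases from Oxt on the opposite strand. 4930473A02Rik was at 0.0557 RPKM.

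Around Sct, Cdhr5 lay 1544 bases away on the same strand at 0.190 RPKM, and Irf7, an interferon regulator, at 0.0780 RPKM. Phrf1 (10.3 RPKM, difference at 7 h -0.81 ± 0.25, adjusted p = 0.088) and Deaf1 (10.2 RPKM, -0.48 ± 0.28, adjusted p = 0.29) lay farther out, with Tmem80 at 1.91 RPKM and Drd4, a dopamine receptor gene, at 0.0137 RPKM. Around Pomc, Efr3b lay 1912 bases away on the other strand at 0.545 RPKM, Dnmt3a, a DNA methyltransferase, 40508 bases away at 6.33 RPKM (-0.36 ± 0.24 at 7 h, adjusted p = 0.35), and AC111092.1 at 0.113 RPKM. The nearest gene on either side of Pomc that passed the filter on low values was thus Dnmt3a.

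**Figure D4:**
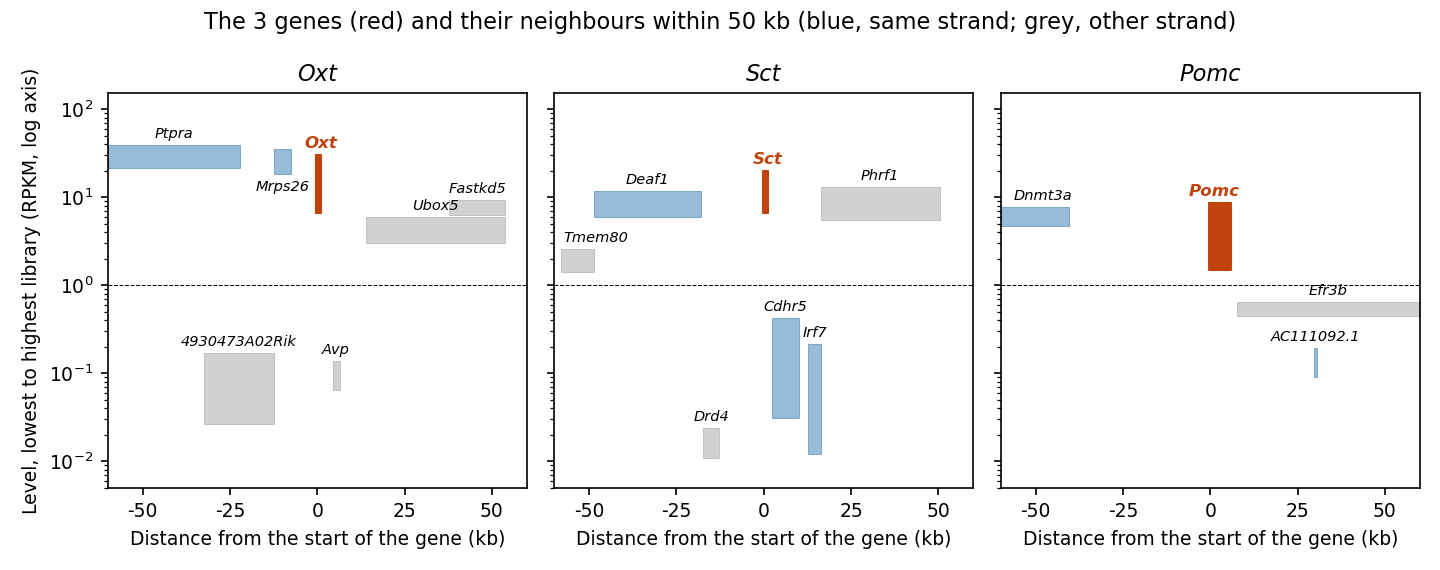
Levels of Oxt, Sct and Pomc (red) and of the genes within 50 kb, by distance from the start of each gene in the direction of its transcription (x axis, kb, with longer genes drawn to 60 kb). Boxes run from the lowest to the highest of 12 libraries (y axis, RPKM on a log axis), blue on the same strand and grey on the other, and the dashed line is 1 RPKM; the nearest downstream gene of each of the 3 lies below 1 RPKM in every library.

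The genes whose log2 levels ran most like each of the 3 over the 12 libraries were taken by Pearson's r among 10720 genes, as a description, since all points share the treatment, the depth and the length trend of the libraries. For Oxt these were Tmem184a (r = 0.956), Nudt18 (0.947), 1700007K13Rik (0.942), Rtkn (0.940) and Pmaip1 (0.933). For Sct they were March5, which the table lists as the date Mar-05 and whose position matches March5 (0.952), Gfod2 (0.951), Rdh14 (0.931), Rbm17 (0.927) and Trub2 (0.923). For Pomc they were Rbm17 (0.951), Ccdc25 (0.944), Mlana (0.933), Gfod2 (0.932) and Gm13261 (0.923). Rbm17 and Gfod2 stood in both the Sct and the Pomc lists, and the Oxt list shared no gene with either. Sct and Pomc ran together with r = 0.877, Oxt and Sct with 0.816, and Oxt and Pomc with 0.791. Sct ranked 126 among the genes most like Oxt, and Pomc 39 among those most like Sct.

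**Figure D5:**
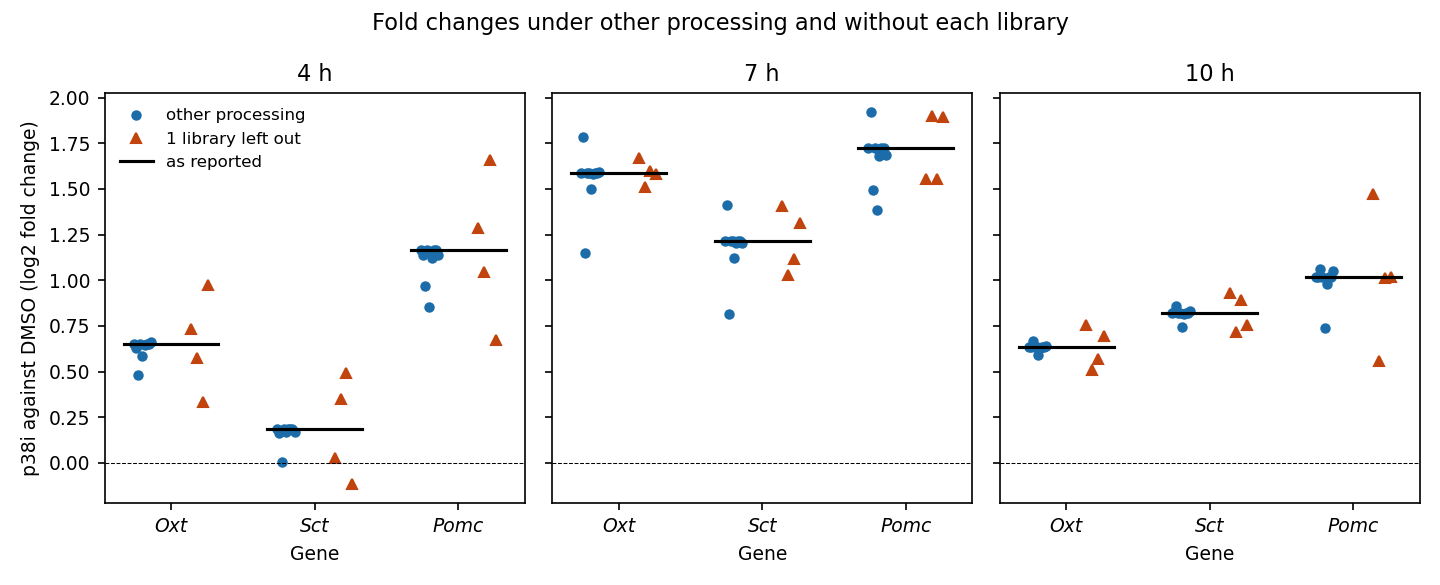
Difference between p38-MAPKi and control (y axis, log2 fold change) for the 3 genes at 4, 7 and 10 h as reported (black bar), under other processing (blue circles) and without 1 library at a time (orange triangles). All values lie above 0 at 7 h and 10 h, and at 4 h that of Sct without replicate 2 of p38-MAPKi lies at -0.12. The blue circles include no trend, other filters, 1 fit over 12 libraries and the replicate block, which cannot change the difference.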

How the data were processed

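mRNA-Seq was made from poly(A) RNA of 12 pools. Per the labels and methods, the authors trimmed reads with Trim Galore 0.4.1, mapped them to GRCm38 with HISAT2 2.0.5, quantified genes in SeqMonk and deposited log2 RPKM for each replicate; their strand option and handling of multimapping reads are not given in the sources used here. A gene without a read is written as 0.9 of a read. From these steps, whole reads (within 0.05) were recovered for 34244 genes, 29544 with merged exon lengths of GENCODE M21, 3279 from a library without a read and 1421 by a search over lengths, and were used for depth, Poisson intervals and voom.

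Genes that reached 1 RPKM in 2 or more of the 4 libraries compared were tested on the deposited log2 values with limma 3.58.1 (trend, R 4.3.3), with Benjamini-Hochberg adjusted p under 0.05. The members and lists were chosen with earlier results of these data known, and no test is given for the members, since all 12 libraries entered that choice. Of each list, every called gene (at most 8), the 3 highest by mean, the 5 genes most like each of the 3 hormone genes and genes within 50 kb were named; receptors, convertases, Penk, Avp and further regulators, markers and hormones were added for their role or level with values seen. Alternatives were other filters, pseudocounts of 1 and 0.1 RPKM, median centring, removal of the length trend (loess span 0.5), no trend, 1 fit over 12 libraries, a replicate block, voom and leaving out each library. Motifs were searched in 250 bases before the start. Python 3.11.15, pandas 2.3.3 and Biopython 1.88 were used.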

Additional observations from a re-analysis of the deposited data

Results flagged for a closer look

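Epo was flagged because all inhibited libraries lay below both controls at 4 h and above both at 7 h, with log2 differences of -1.55 and 0.76. Nppb was flagged for the same pattern, with -0.83 at 4 h and 0.77 at 7 h. The difference between the times was not tested for either gene, and the 7 h values did not pass the test (adjusted p = 0.12 for Epo and 0.34 for Nppb, limma), nor did the 4 h value of Nppb (adjusted p = 0.69). Epo overlaps Pop7 and Gnb2 on the same strand. Epo had 10 to 63 reads and Nppb 8 to 34 reads in the libraries concerned.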

How the results depend on the processing

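No trend, other filters, 1 fit over 12 libraries and the replicate block leave the difference between group means unchanged by design. Nothing about its sign is read from them. Under the other alternatives, the differences of Oxt, Sct and Pomc between p38-MAPKi and control kept their sign at 7 h and 10 h. At 7 h they moved by more than 1 SD for Oxt with median centring (1.78), with the length trend removed (1.15) and with a pseudocount of 1 RPKM (1.497), for Sct with the length trend removed (0.82) and for Pomc with a pseudocount of 1 RPKM (1.38). At 4 h, leaving out 1 library gave -0.12 to 0.49 for Sct, the lowest without replicate 2 of p38-MAPKi. In the controls, the difference of Oxt from 4 h to 10 h was 0.74 and ranged from 0.61 to 0.86 without 1 library. The filter of at least 10 RPKM, 1 fit over 12 libraries and the replicate block, for a pairing of replicates, leave it at 0.74 by design. Oxt passed that filter only through the libraries at 10 h (12.5 and 10.6 RPKM). Sct from 4 h to 7 h turned to -0.057 with median centring. Without 1 library Sct ranged from -0.14 to 0.24 from 4 h to 7 h, from -0.32 to 0.056 from 7 h to 10 h and from -0.24 to 0.078 from 4 h to 10 h, and Pomc from -0.62 to 0.29 from 7 h to 10 h and from -0.23 to 0.69 from 4 h to 10 h.

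The number of pathway genes called moved with many alternatives, and the cause was not tested. At 4 h (2 called) it was 0 without the trend, with the length trend removed, after median centring, without a filter, with at least 10 RPKM, in 1 fit over 12 libraries and with voom, 1 with the replicate block, 3 with a pseudocount of 1 RPKM, and 0 to 2 without 1 library. At 7 h (1 called) it was 0 without the trend, with the length trend removed and after median centring, 7 without a filter, 6 with at least 10 RPKM, 13 in 1 fit over 12 libraries, 12 with the replicate block, 9 with voom, and 0 to 19 without 1 library, the highest without replicate 2 of p38-MAPKi. At 10 h (1 called) it was 0 without a filter, with at least 10 RPKM and in 1 fit over 12 libraries, and 2 with the replicate block. From 4 h to 10 h in the controls (1 called) it was 0 with the length trend removed, after median centring, without a filter and in 1 fit over 12 libraries, 2 with either pseudocount, 3 with the replicate block, 5 with voom and 0 to 5 without 1 library, and from 7 h to 10 h (0 called, 4 at an unadjusted p under 0.05 in limma) 0 to 1 without 1 library. Of the 5 pathway genes called, each lost its call under 4 to 10 of 13 alternatives. Whether same-numbered pools shared a mother or a day is not given in the sources used here. The correlation of their deviations from group means was -0.01 to 0.17.

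Depth limits these values: 39 to 279 reads per library stand behind them, 2 pools per group leave 2 residual degrees of freedom before moderation, and RPKM gives no amount of RNA per embryo.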
